A study of Homo sapiens with 6 samples.

Results

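The ABC transporter genes were compared between SET-2 OTX P/R cells and parental SET-2 cells by RNA sequencing. Members were the genes whose symbol is ABC, a subfamily letter from A to G and a number, together with MVP, the major vault protein, which is not a transporter but is often studied beside the drug pumps. The rule found 46 genes, 45 of them ABC genes, among 19785 in the table. ABC proteins bind and hydrolyze ATP at a conserved cassette, and most use it to move lipids, peptides, metabolites, heme-related compounds or drugs across a membrane. Subfamilies A and G mainly handle lipids and sterols, B holds the multidrug pump P-glycoprotein and several transporters of mitochondria, C holds pumps of conjugated and nucleotide-like compounds, and D serves peroxisomes and lysosomes. The proteins of E and F have no membrane part and act on ribosomes and translation. Efflux pumps such as those encoded by ABCB1, ABCC1 and ABCG2 are known in leukemia for lowering the drug content of the cell.

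SET-2 is an established human leukemia line of megakaryoblastic character, described in the labels as secondary acute myeloid leukemia. The OTX P/R group is a persister and resistant derivative of the line, and OTX is taken to stand for birabresib, a BET inhibitor, since the series is about resistance to BET inhibitors. Each group had 3 libraries of total RNA from untreated cultures in exponential phase in RPMI medium with fetal bovine serum, and neither line was under drug at harvest. With 1 derivative, what belongs to resistance and what else sets the derivative apart cannot be told apart, and p-values measure only the spread between these libraries, which may be technical.

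The values are StringTie abundances per gene, scaled for transcript length and quantile-normalized, on a linear scale. Library sums lay between 419375 and 419437 and the sequencing depth is unknown. A value therefore tells how a gene ranks among the others, and differences in total RNA are not kept. The test took the 10741 genes whose mean across all 6 libraries reached 1, and a gene was called at a limma adjusted p under 0.05. Log2 fold changes and the log2 scale below refer to log2(value + 1), which understates changes of low genes. Defining markers of the line were present in every library, GATA1 at 199 to 207 in OTX P/R cells and at 184 to 194 in parental cells, whereas MS4A1, CD14 and CD3E were at or below 0.0744 in every library. Of 8 megakaryoblastic and erythroid markers, summing to 594.1 to 603.6 in OTX P/R cells and 615.3 to 633.0 in parental cells, 5 were called higher and 2, ITGA2B and KIT, lower. Shares over all tested genes were 18.6% higher and 17.5% lower. Of 4 T and NK cell markers the 2 tested, NKG7 and CD3D, were lower. CD3D passed the filter only through its parental values, with no OTX P/R value above 0.853. The list summed to 29.4 to 31.6 in OTX P/R cells and 65.8 to 72.9 in parental cells, with CD3E near 0 in both. The 4 stromal and endothelial markers, mainly PECAM1, which megakaryocytic cells also express, summed to 16.9 to 18.1 in OTX P/R cells and 7.35 to 8.62 in parental cells. The other 3 were not tested. COL1A1 was at 1.86 to 1.99 in OTX P/R cells and 0.0466 to 0.114 in parental cells. CDH5 was at 0.232 to 0.266 in OTX P/R cells and at most 0.00363 in parental cells. COL3A1 was lower in OTX P/R cells, with no value above 0.0357 in any library. The B cell list, carried by CD79A, summed to 6.45 to 7.19 in OTX P/R cells and 8.45 to 9.16 in parental cells, the monocyte list, carried by LYZ, to 80.9 to 102.6 in OTX P/R cells and 86.9 to 100.3 in parental cells, and the epithelial list to no more than 1.85 in any library. In bulk RNA of a cell line, fewer cells expressing a marker and less of its RNA per cell cannot be told apart. The part of these shifts in the results below was not tested.

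Of the 46 members 20 passed the filter on low values. In OTX P/R cells 4 of these were higher (ABCB6, ABCB8, ABCB11 and ABCF2), 6 were lower (ABCA2, ABCC4, ABCE1 and MVP among them) and 10 were not called. Over all tested genes 18.6% were called higher and 17.5% lower, 36.1% in all. Values of OTX P/R and parental libraries stood fully apart for 5 members upward, ABCC5 besides those called, and 7 downward, ABCD4 besides those called, against 26.8% of all tested genes upward and 24.9% downward, 51.6% in all. A fold of at least 1.5 on the log2(value + 1) scale was reached by 5 called members, ABCB8, ABCB11 and ABCF2 upward and ABCC4 and MVP downward, against 14.6% of all tested genes. The median log2 fold change of the tested members was -0.06, beside 0.02 over all tested genes, with 9 members above 0 and 11 below. Without OTX P/R replicate 2 only 3 members were called lower, and ABCA2 and ABCE1 were among those that lost the call.

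In subfamily C 1 of 4 tested members was called, in A 1 of 2 and in F 1 of 2, and the lone E member was called, beside the 36.1% of all tested genes. No G member passed the filter, and calls are not tallied for B and D. The summed abundance of the B members was 91.4, 107.1 and 94.8 in the OTX P/R libraries, against 81.8, 81.9 and 76.7 in the parental libraries, with no overlap. The C members summed to 49.2, 48.9 and 49.9 in OTX P/R cells, against 79.3, 71.6 and 75.7 in parental cells. These groups also stood apart, with OTX P/R lower, and ABCC4 was the most abundant C member in every library. A sum follows its abundant genes and does not show a shift shared by the subfamily. ABCB6 averaged 23.4 in OTX P/R cells and 15.5 in parental cells, and ABCB8 20.0 and 8.79. ABCB1 and ABCB9 were lower by mean in OTX P/R cells. ABCC4 averaged 24.9 in OTX P/R cells and 52.2 in parental cells, while ABCC5 was higher by mean in OTX P/R cells. Like sums of other genes were not computed. The sum over all 45 ABC genes was 284.8 ± 5.90 in OTX P/R cells and 295.3 ± 4.12 in parental cells (SD, n = 3 per group), and the OTX P/R range of 279.1 to 290.8 overlapped the parental range of 290.6 to 298.4.

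**Figure D1:**
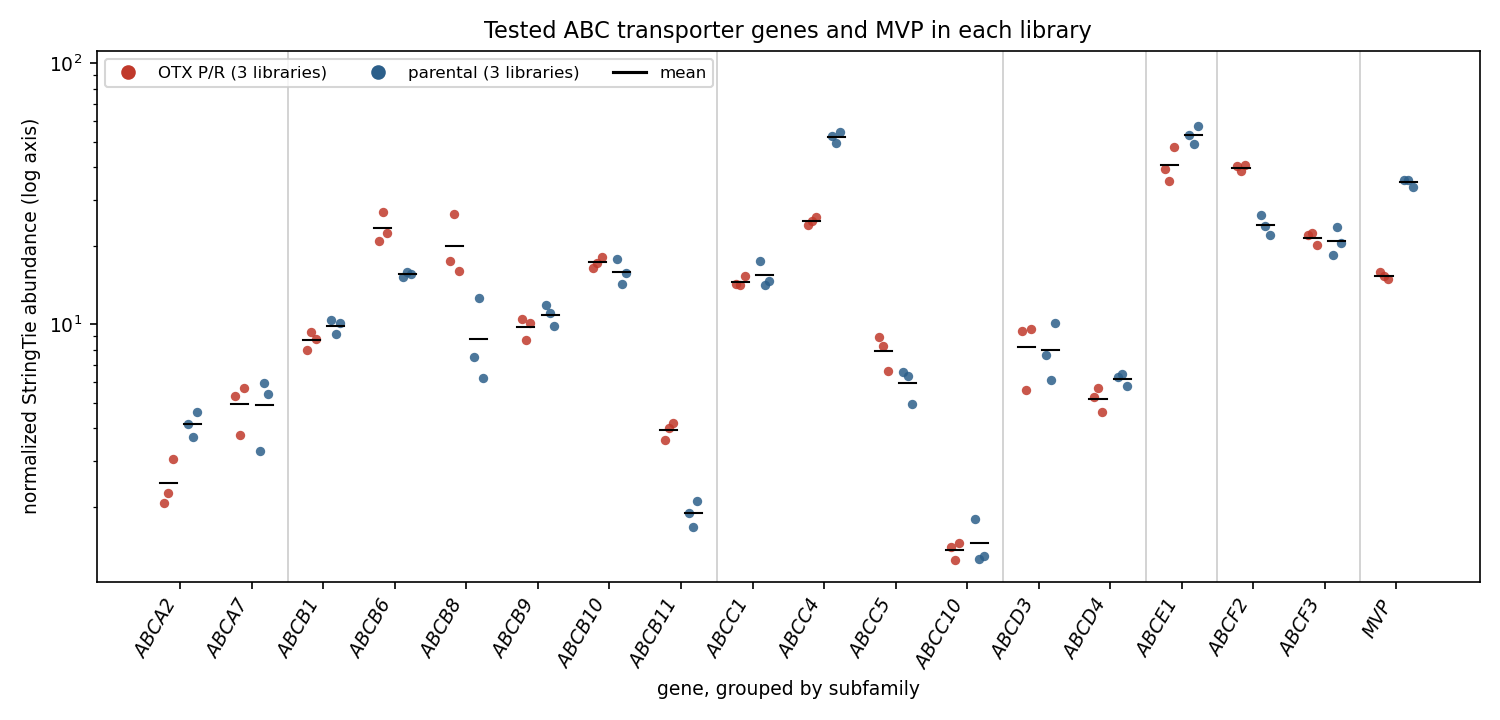
Normalized abundance on a log axis of 18 of the tested members in each OTX P/R library (red, left of each pair) and each parental library (blue, right), with bars at the means and grey lines between subfamilies. ABCC4 and MVP sit clearly lower and ABCF2 and ABCB11 clearly higher in the OTX P/R libraries, while ABCC1, ABCA7 and ABCD3 overlap.

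**Figure D2:**
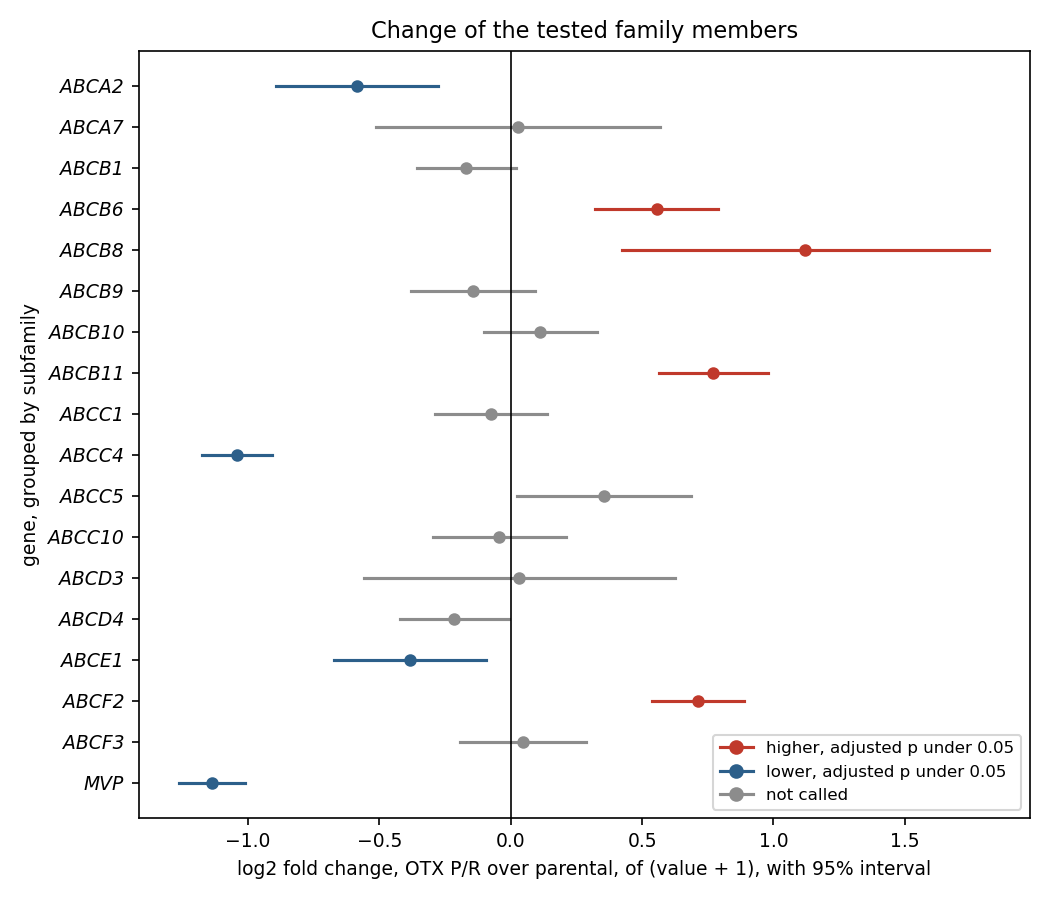
Log2 fold changes (OTX P/R over parental) of value + 1 for 18 of the tested members with 95% intervals from limma, in red for the 4 called higher, blue for 4 called lower and grey for the 10 not called. The intervals are narrow for ABCC4 and MVP and wide for ABCB8, from 0.42 to 1.82.

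Promoters of 4 called members are printed because they carry the contrasts described below: ABCB8 and ABCF2, which rose and lie near each other on chromosome 7, ABCB6, the only member promoter found with an E-box, and ABCC4, the tested ABC gene with the largest fall on the log2(value + 1) scale. Each runs from 250 bases before to 50 bases after the start of the gene in RefSeq on GRCh38.p14, 5′ to 3′ on the strand of the gene, at chr7:151028200-151028499 (plus strand) for ABCB8, chr7:151227156-151227455 (minus) for ABCF2, chr2:219218909-219219208 (minus) for ABCB6 and chr13:95301402-95301701 (minus) for ABCC4. Capitals mark matches to GGGCGG, the GC box bound by SP and KLF factors, and to CACGTG, the E-box bound by MYC with MAX among others, on either strand; 2 GC boxes that overlap form 1 run of capitals.
ABCB8: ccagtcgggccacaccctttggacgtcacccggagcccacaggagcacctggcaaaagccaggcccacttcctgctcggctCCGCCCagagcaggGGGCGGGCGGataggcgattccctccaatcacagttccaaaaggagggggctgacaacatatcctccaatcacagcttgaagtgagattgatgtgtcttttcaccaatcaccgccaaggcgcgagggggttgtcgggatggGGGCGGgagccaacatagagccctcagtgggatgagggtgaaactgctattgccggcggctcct
ABCF2: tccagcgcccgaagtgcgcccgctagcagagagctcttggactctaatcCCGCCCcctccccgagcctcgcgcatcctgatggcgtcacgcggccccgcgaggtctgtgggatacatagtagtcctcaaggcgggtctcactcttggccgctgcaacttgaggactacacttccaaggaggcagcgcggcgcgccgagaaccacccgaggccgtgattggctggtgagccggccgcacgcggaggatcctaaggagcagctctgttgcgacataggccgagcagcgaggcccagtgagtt
ABCB6: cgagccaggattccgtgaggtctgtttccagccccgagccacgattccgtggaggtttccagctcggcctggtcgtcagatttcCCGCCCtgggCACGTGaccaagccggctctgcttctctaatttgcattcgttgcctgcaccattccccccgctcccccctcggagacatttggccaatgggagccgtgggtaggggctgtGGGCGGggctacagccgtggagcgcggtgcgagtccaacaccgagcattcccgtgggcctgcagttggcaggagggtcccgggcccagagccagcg
ABCC4: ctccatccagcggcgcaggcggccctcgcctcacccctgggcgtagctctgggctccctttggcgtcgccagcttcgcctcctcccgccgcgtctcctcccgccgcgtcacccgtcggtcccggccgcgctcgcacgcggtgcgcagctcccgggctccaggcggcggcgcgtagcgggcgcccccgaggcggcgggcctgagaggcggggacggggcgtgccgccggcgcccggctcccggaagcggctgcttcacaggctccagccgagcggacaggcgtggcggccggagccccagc
ABCB8 held 4 GC boxes, ABCF2 1, ABCB6 2 and ABCC4 none, although the ABCC4 promoter was the richest in G and C at 79.7%, against 61.0% for ABCB8, 65.3% for ABCF2 and 65.7% for ABCB6. Of the 20 tested members 17 had a promoter in the RefSeq table. A GC box lay in 3 of the 4 called higher members, in none of the 4 called lower members that had a promoter (ABCA2, ABCC4, ABCE1 and MVP) and in 8 of the 9 that were not called, beside 45.0% of all 35116 promoters of the table. The E-box was found in ABCB6 alone of the 17, beside 7.26% of all promoters, and the TATA box, TATAAA on either strand, in ABCC5 alone, beside 11.5%. For members with several listed starts the first was used, while the shares over all promoters count every listed start, of genes tested or not. The shares among all genes called higher, lower or not called were not computed. The split of the GC box by call therefore has no like background here. These matches describe letters in a window and do not show binding.

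ABCC4 encodes an efflux pump for cyclic nucleotides and nucleotide-like drugs that also sits in platelet granules. It was at 24.1, 24.8 and 25.7 in the OTX P/R libraries, against 52.8, 49.4 and 54.5 in the parental libraries. Every OTX P/R value lay at about the same level and below every parental value, a log2 fold change of -1.04 ± 0.05 SE (limma adjusted p = 6.20e-05). Among the members it held the second highest mean in parental cells, just under ABCE1, and the third in OTX P/R cells. Its log2 fold change stayed between -1.08 and -1.01 with any 1 library left out.

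The other C members with enough signal did not pass. ABCC1, the pump of glutathione conjugates and of several anticancer drugs, was at 14.3, 14.1 and 15.3 in OTX P/R cells, against 17.5, 14.2 and 14.7 in parental cells. The groups overlapped, and the interval of its log2 fold change, -0.29 to 0.14, leaves room for a modest fall or a small rise. ABCC5, a pump of cyclic nucleotides, was at 8.92, 8.23 and 6.66 in OTX P/R cells, against 6.60, 6.37 and 4.98 in parental cells. The lowest OTX P/R value of ABCC5 just exceeded the highest parental value, and the gene missed the threshold (log2 fold change 0.36, adjusted p = 0.0892). ABCC10, the lowest of the tested members, averaged 1.37 ± 0.108 in OTX P/R cells and 1.45 ± 0.296 in parental cells (SD, n = 3 per group).

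ABCB1 encodes P-glycoprotein, the classical multidrug efflux pump. It was at 8.00, 9.33 and 8.76 in the OTX P/R libraries, against 10.4, 9.19 and 10.1 in the parental libraries, and the groups overlapped. ABCB1 was not called, with a log2 fold change of -0.17 (95% interval -0.36 to 0.02, limma adjusted p = 0.141). The upper bound of that interval allows at most a slight rise in OTX P/R cells. ABCB11, known as the bile salt export pump of liver cells, was among the lowest tested members in both lines, at 3.62, 4.0 and 4.18 in OTX P/R cells, against 1.90, 1.67 and 2.11 in parental cells. All OTX P/R libraries lay above all parental ones, and the gene was called higher, with a log2 fold change of 0.77 ± 0.09 SE (limma adjusted p = 0.00103). ABCB9, a peptide transporter of lysosomes, overlapped between the groups at 9.78 ± 0.941 in OTX P/R cells and 10.9 ± 1.03 in parental cells (SD, n = 3 per group). Exons of ABCB9 overlap those of ARL6IP4 and OGFOD2 on the other strand in GENCODE, so reads may not be separable there.

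Of the B transporters of mitochondria and heme-related compounds, ABCB8 and ABCB6 were called higher. ABCB8, a protein of the mitochondrial inner membrane, was at 17.5, 26.5 and 15.9 in OTX P/R cells, against 7.48, 12.6 and 6.26 in parental cells. Replicate 2 was the highest library in both groups, and yet no parental value reached the lowest OTX P/R value. Among the tested members ABCB8 had the largest rise on the log2(value + 1) scale, a log2 fold change of 1.12 ± 0.29 SE (limma adjusted p = 0.0260), but also the widest error among the called members. Its 24 nearest tested genes had a median log2 fold change of 0.81, described further on. An antisense locus in GENCODE overlaps exons of ABCB8, and the strand setting of the counting is not stated. The ABCB8 call was lost in 4 of the 6 fits with 1 library left out, without OTX P/R replicate 1 or 2 or parental replicate 1 or 3, where the adjusted p lay between 0.0545 and 0.0788.

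ABCB6, which is linked to porphyrin transport and carries the Lan blood group antigen of red cells, was at 20.9, 27.0 and 22.4 in OTX P/R cells, against 15.2, 15.8 and 15.6 in parental cells. The parental libraries were nearly equal and all OTX P/R libraries lay above them (log2 fold change 0.56 ± 0.10 SE, limma adjusted p = 0.00631). A protein-coding locus on the same strand in GENCODE shares exons with ABCB6. ABCB10, needed for heme synthesis in red cell precursors, averaged 17.3 ± 0.862 in OTX P/R cells and 15.9 ± 1.75 in parental cells (SD, n = 3 per group), the groups overlapped, and GENCODE lists 3 pseudogenes named after it.

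Of 8 genes of mitochondrial heme and iron-sulfur handling, 2 rose, none fell and 6 were not called, beside 36.1% of all tested genes called. SLC25A37, the mitochondrial iron importer also called mitoferrin, was at 53.1, 65.4 and 77.4 in OTX P/R cells, against 28.7, 33.9 and 34.2 in parental cells (log2 fold change 0.98, limma adjusted p = 0.00352). FECH, which inserts iron into heme, was at 11.4, 12.1 and 13.3 in OTX P/R cells, against 9.84, 10.5 and 10.2 in parental cells (log2 fold change 0.24, adjusted p = 0.0360). For GLRX5, NFS1, ISCU, GFER and TMEM14C the log2 fold changes lay between -0.08 and 0.16. At the other end of the B subfamily, ABCB4, a phospholipid transporter of bile, and ABCB5 stayed under the filter.

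Members that act on ribosomes and translation also split. ABCE1, which takes ribosomes apart after termination, had the highest mean of the family in both lines, at 39.3, 35.5 and 47.7 in OTX P/R cells, against 53.3, 49.1 and 57.6 in parental cells. The highest OTX P/R value lay just under the lowest parental value, and the call was marginal (log2 fold change -0.38 ± 0.12 SE, limma adjusted p = 0.0488). It was lost without OTX P/R replicate 1 or 2, without any 1 of the parental libraries, with no filter, and with either other variance prior, with adjusted p up to 0.133. Exons of ABCE1 overlap those of ANAPC10 and OTUD4 on the other strand, so its value may include their reads. ANAPC10 was at 9.43 to 10.8 in OTX P/R cells and 3.81 to 15.0 in parental cells. OTUD4 was at 2.85 to 4.47 in OTX P/R cells and 4.05 to 5.90 in parental cells. It was not called (log2 fold change -0.37, limma adjusted p = 0.177). The part of such reads in the change of ABCE1 was not tested.

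ABCF2 was at 40.2, 38.7 and 40.6 in OTX P/R cells, against 26.2, 23.8 and 21.9 in parental cells. By mean it stood at rank 2 among the members in OTX P/R cells and at rank 4 in parental cells, and every OTX P/R library lay above every parental one (log2 fold change 0.71 ± 0.07 SE, limma adjusted p = 7.18e-04). GENCODE lists 2 pseudogenes named after ABCF2 and a protein-coding locus on the same strand that shares exons with it, so reads could be split between them. The 24 nearest tested genes had a median log2 fold change of 0.76. ABCF3 did not pass, at 21.5 ± 1.21 in OTX P/R cells and 20.9 ± 2.63 in parental cells (SD, n = 3 per group). Of 9 translation partners of these proteins, counting GCN1 and its older symbol GCN1L1 as 1 gene, 2 fell, none rose and 7 were not called. The share called over all tested genes was 36.1%. ETF1, the release factor that recognizes stop codons, was at 38.8, 42.7 and 37.8 in OTX P/R cells, against 71.2, 64.5 and 69.9 in parental cells (log2 fold change -0.77, adjusted p = 3.94e-04). EIF2S3, a subunit of the initiation factor that delivers the first tRNA, fell by 0.20 on the log2 scale. GSPT1, the partner of ETF1, ranged from 54.8 to 122.6 in OTX P/R cells and from 52.2 to 143.2 in parental cells, a spread too wide to read a difference.

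ABCF1, a translation protein that binds the same initiation factor, was listed at 0 in 5 libraries and at 0.00350 in OTX P/R replicate 2. Of the 24 nearest genes of the table on chromosome 6, 19 were below 0.1 in every library, beside 31.1% of all genes of the table that have a position in GENCODE. Among them TUBB, a widely expressed tubulin, and MRPS18B, a mitochondrial ribosomal protein, were listed at 0 in every library. No level of ABCF1 is therefore given beyond its listing. TAP1, an ABC peptide transporter under another symbol and also on chromosome 6, was listed at or below 0.00200, and no level is given for it either. Of the other family members with other symbols, TAP2, its partner on the same chromosome, was listed at 0.653 to 0.764 in OTX P/R cells and 0.837 to 0.930 in parental cells, and CFTR was at or below 0.00961 in every library.

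The tested A members are ABCA2, a lipid transporter of endosomes and lysosomes, and ABCA7, a phospholipid transporter. ABCA2 was at 2.07, 2.27 and 3.04 in OTX P/R cells, against 4.15, 3.71 and 4.62 in parental cells. It fell by 0.58 on the log2(value + 1) scale (SE 0.13, limma adjusted p = 0.0144), and by 0.75 with a pseudocount of 0.1. Without OTX P/R replicate 2 the adjusted p was 0.0507. ABCA7 scattered within both groups, at 5.34, 3.78 and 5.73 in OTX P/R cells, against 3.29, 5.97 and 5.41 in parental cells, and its log2 fold change of 0.03 has an interval of -0.51 to 0.57.

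Among the D members, ABCD4, which acts on vitamin B12 in lysosomes, averaged 5.20 ± 0.539 in OTX P/R cells and 6.18 ± 0.347 in parental cells and did not pass (log2 fold change -0.21, adjusted p = 0.0977). ABCD3, of peroxisomes, spread from 5.61 to 9.59 in OTX P/R cells and from 6.11 to 10.1 in parental cells, with the lowest value in replicate 2 of each group.

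Of 12 peroxisomal import and beta-oxidation genes 2 rose, 1 fell and 9 were not called, beside 36.1% of all tested genes called. ACAA1, a thiolase, averaged 23.4 ± 0.816 in OTX P/R cells and 19.2 ± 1.01 in parental cells, and CAT, catalase, averaged 56.2 ± 2.70 in OTX P/R cells and 48.8 ± 1.86 in parental cells (SD, n = 3 per group). HSD17B4, a beta-oxidation enzyme, fell to 16.9 ± 1.26 in OTX P/R cells, against 21.5 ± 2.36 in parental cells. The import genes PEX3, PEX5, PEX14, PEX16 and PEX19 were not called, with log2 fold changes from -0.21 to 0.10.

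MVP builds the shell of vaults, large ribonucleoprotein particles of the cytoplasm. It was at 15.9, 15.4 and 14.9 in OTX P/R cells, against 35.7, 35.8 and 33.6 in parental cells. Among the tested members this was the largest fall on the log2(value + 1) scale, a log2 fold change of -1.14 ± 0.05 SE (limma adjusted p = 3.77e-05), and it stayed between -1.16 and -1.11 with any 1 library left out. The table also lists CTD-2574D22.6, a locus on the same strand whose exons overlap those of MVP. It was at 46.2, 46.8 and 46.5 in OTX P/R cells, against 41.2, 42.5 and 42.0 in parental cells (log2 fold change 0.15, adjusted p = 0.0302), so the reads of the locus may be split between the entries. TEP1, a vault protein, rose to 5.15 ± 0.840 in OTX P/R cells, against 3.51 ± 0.439 in parental cells (adjusted p = 0.0360). PARP4, the vault poly(ADP-ribose) polymerase, was at 11.3 ± 0.489 in OTX P/R cells and 13.0 ± 0.746 in parental cells and did not pass (adjusted p = 0.0571).

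The other 26 members had means below 1 and were not tested. Of these, 17 were below 0.02 in every library, among them ABCA5, ABCA6, ABCA9 and ABCA10 of the chromosome 17 cluster, ABCG1, ABCG4, ABCG5 and ABCG8, and ABCC8 and ABCC9, the sulfonylurea receptors. ABCC8 and ABCC12 were listed at 0 in every library. ABCA4, ABCA12, ABCA13, ABCB5, ABCD2 and ABCF1 complete the list, with no value above 0.0117. ABCG1, which loads cholesterol onto lipoproteins, was at 0.00196, 0.00407 and 0.00479 in OTX P/R cells, against 0.00478, 0.00323 and 0.00622 in parental cells, and the groups overlapped. ABCC2 peaked at 0.0270 and ABCC11 at 0.0904. The remaining 7, ABCA1, ABCA3, ABCA8, ABCB4, ABCC3, ABCC6 and ABCG2, reached at least 0.1 in some library.

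ABCG2, the drug and urate pump also known as breast cancer resistance protein, was at 0.00761, 0.00391 and 0.00603 in OTX P/R cells, against 0.318, 0.160 and 0.679 in parental cells. All OTX P/R values were near 0 and the parental values low and spread. In a fit without the filter ABCG2 missed the threshold (limma adjusted p = 0.0692). ABCA1, which hands cholesterol to apolipoproteins, was at 0.0246, 0.0168 and 0.0206 in OTX P/R cells, against 0.151, 0.134 and 0.159 in parental cells. In that same fit it was called lower (adjusted p = 2.90e-04), although every value is far under the filter. ABCA3, known for filling lamellar bodies of the lung with lipid, stood above the parental range in each OTX P/R library, at 0.608, 0.786 and 0.484 in OTX P/R cells, against 0.0479, 0.0449 and 0.0483 in parental cells (adjusted p = 0.00236 without the filter).

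**Figure D3:**
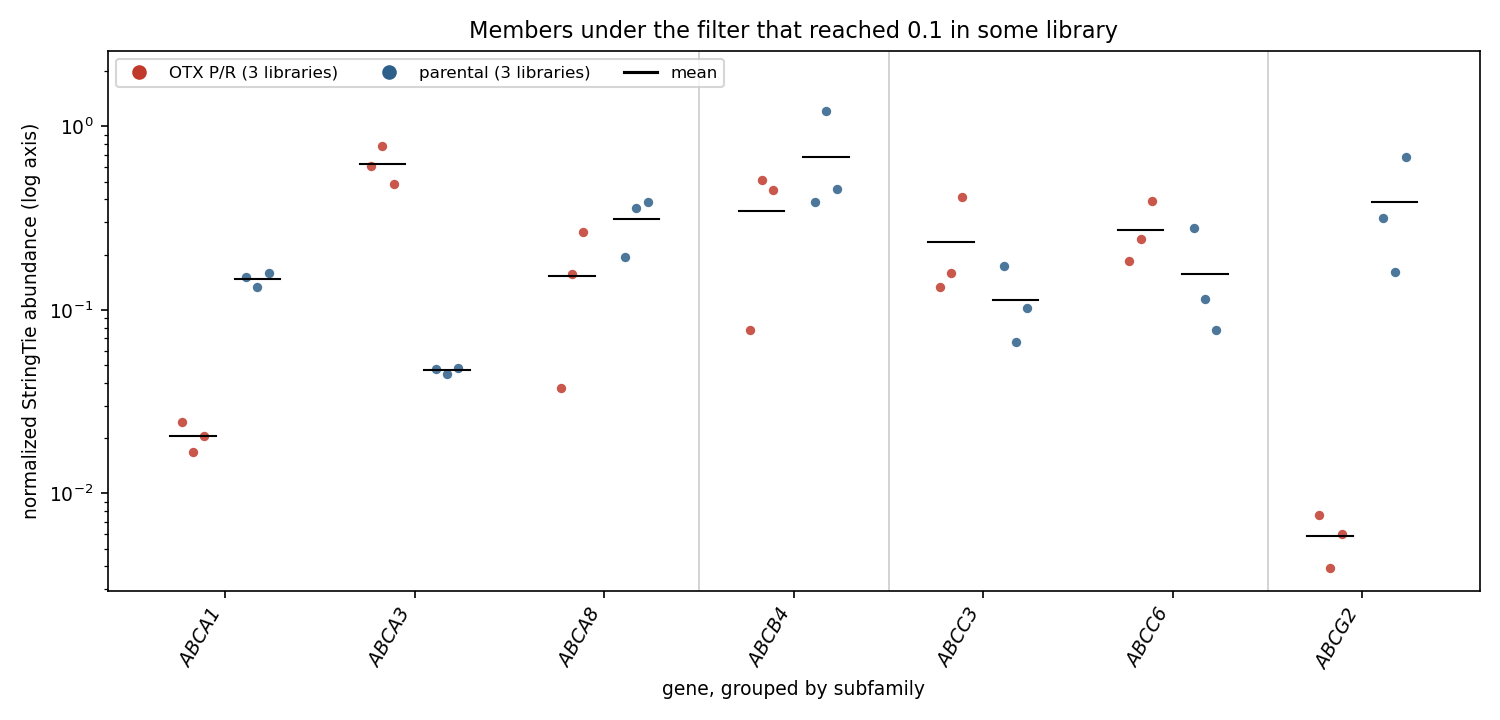
Normalized abundance on a log axis of the 7 untested members that reached 0.1 in some library, for each OTX P/R library (red, left of each pair) and each parental library (blue, right), with bars at the means. ABCG2 and ABCA1 lie lower and ABCA3 higher in all OTX P/R libraries, at values below 1, while ABCA8, ABCB4, ABCC3 and ABCC6 overlap.

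ABCB4, ABCC3, ABCC6 and ABCA8 overlapped between the groups. ABCB4 ranged from 0.0780 to 0.511 in OTX P/R cells and from 0.389 to 1.21 in parental cells, and ABCA8 from 0.0375 to 0.268 in OTX P/R cells and from 0.195 to 0.387 in parental cells. ABCC3, a pump of conjugated bile acids and drugs, ranged from 0.133 to 0.415 in OTX P/R cells and from 0.0665 to 0.173 in parental cells. ABCC6 ranged from 0.186 to 0.393 in OTX P/R cells and from 0.0778 to 0.279 in parental cells, and GENCODE lists 2 pseudogenes named after it.

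ABCA1 and ABCG1 are textbook targets of the LXR receptors, which pair with RXR and respond to oxidized sterols. Of 11 tested genes around this control (NPC1, SREBF1 and SREBF2 among those not called) 4 rose, 3 fell and 4 were not called. Shares over all tested genes were 18.6% higher and 17.5% lower. RXRA, which encodes RXR alpha, was at 0.0292, 0.0354 and 0.0341 in OTX P/R cells, against 4.29, 3.72 and 4.05 in parental cells (log2 fold change -2.28, limma adjusted p = 1.15e-05). RXRA passed the filter only through its parental values, and its OTX P/R values were near 0. The size of its fall therefore rests on values near the floor. APOE, a lipoprotein component and cholesterol acceptor, fell by 1.58 on the log2 scale, to 424 ± 4.63 in OTX P/R cells, against 1268 ± 33.0 in parental cells (SD, n = 3 per group). NR1H2, which encodes LXR beta, rose to 116 ± 9.11 in OTX P/R cells, against 81.8 ± 4.67 in parental cells. NR1H3, LXR alpha, was not called, at 2.39 to 4.61 in OTX P/R cells and 2.00 to 4.20 in parental cells. MYLIP, LPCAT3 and SCARB1, the last a lipoprotein receptor, rose by log2 fold changes of 0.59 (MYLIP), 0.31 (LPCAT3) and 0.50 (SCARB1). NPC2, which moves cholesterol out of lysosomes, fell by 0.38. RXRB, on chromosome 6 like ABCF1 and TAP1, was listed at or below 0.196 and was not tested. As for those genes, no level is given beyond its listing.

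Of 6 tested transcription factors known to control drug pumps 2 rose, 2 fell and 2 were not called. YBX1 averaged 1544 ± 70.7 in OTX P/R cells and 1089 ± 52.3 in parental cells, and MYC 250.5 ± 21.1 in OTX P/R cells and 184.5 ± 27.0 in parental cells (SD, n = 3 per group). NFE2L2, the NRF2 factor that drives ABCC pumps under oxidative stress, fell to 18.4 ± 0.640 in OTX P/R cells, against 23.5 ± 1.63 in parental cells, and FOXO1 fell to 3.09 ± 0.232 in OTX P/R cells, against 4.59 ± 0.214 in parental cells. The xenobiotic receptors NR1I2 and NR1I3 and the dioxin receptor AHR were under the filter, with no value above 0.822. Of 10 genes of glutathione conjugation, which makes substrates for the C pumps, 1 rose, 4 fell and 5 were not called. GSTO1, a glutathione transferase, was at 118.6, 115.5 and 109.9 in OTX P/R cells, against 244.2, 262.1 and 240.9 in parental cells (log2 fold change -1.11, limma adjusted p = 4.45e-05). On the log2 scale, MGST1 fell by 0.33, GCLM by 0.30 and GSR by 0.16, while GSS, glutathione synthetase, rose by 0.32. KCNJ8, the potassium channel partner of ABCC9, was called higher (log2 fold change 0.43), while ABCC9 was listed at 0 in 4 libraries and KCNJ11 was under the filter. Over all lists of related genes 13 of 59 tested were called higher and 12 lower, beside 18.6% and 17.5% of all tested genes.

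**Figure D4:**
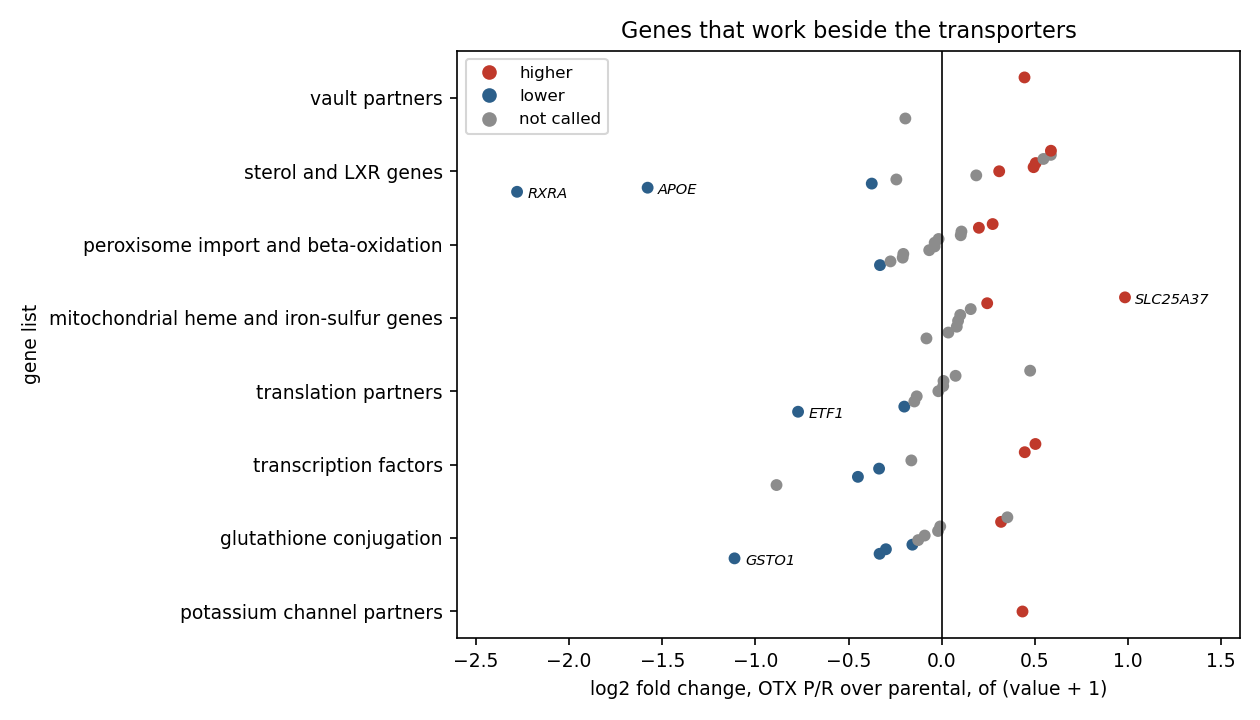
Log2 fold changes (OTX P/R over parental) of value + 1 for the 59 tested genes of 8 lists of partners and regulators, with red for genes called higher, blue for lower and grey for not called. Most lists spread on both sides of 0; RXRA, APOE and GSTO1 are the lowest called genes and SLC25A37 the highest.

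Genes that lie side by side on a chromosome can shift together, so each tested member was set beside the 24 nearest tested genes in GENCODE order, or 12 on each side. Around ABCB8 on chromosome 7 the median log2 fold change of the neighbours was 0.81 and 19 of 24 were called higher, and around ABCF2, on the same chromosome, it was 0.76 with 18 of 24 higher. These windows share genes, and 18.6% of all tested genes were called higher. ABCF2 differed from its neighbours by -0.05 and ABCB8 by 0.32 on the log2 scale, so the rise of ABCF2 was about that of its surroundings. The part of this regional shift in the rises of ABCB8 and ABCF2 was not tested.

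For the other called members the medians of the neighbours ran from -0.09 around ABCE1 to 0.22 around MVP, beside 0.02 over all tested genes. ABCC4 fell by 1.04 on the log2 scale beside a neighbour median of -0.04, and MVP by 1.14 beside 0.22. ABCB11 and ABCB6 rose by log2 fold changes of 0.77 and 0.56 beside 0.06 and 0.04, and ABCA2 fell by 0.58 beside 0.03. Of the 24 neighbours of MVP 8 were called higher and 1 lower, beside 18.6% higher and 17.5% lower among all tested genes. The calls around MVP thus leaned upward, although 37.5% were called in all, beside 36.1% of all tested genes.

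**Figure D5:**
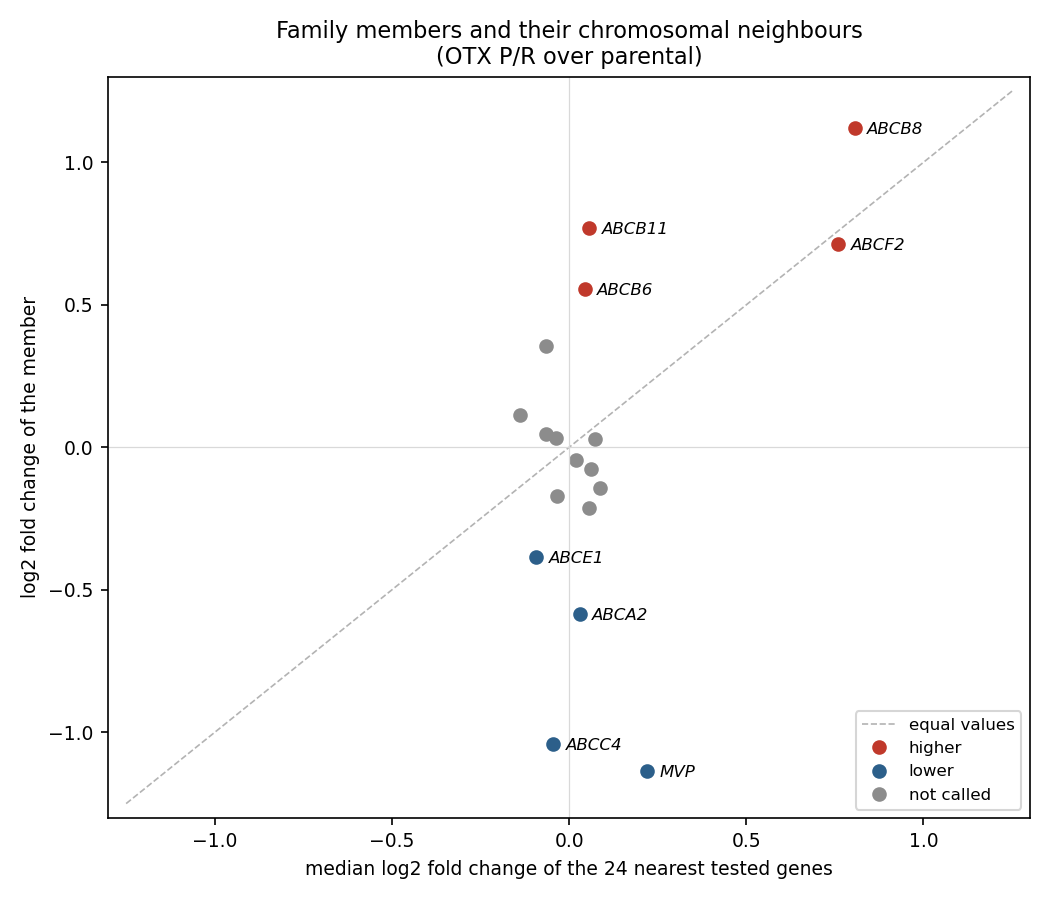
Log2 fold change (OTX P/R over parental) of 18 of the tested members against the median log2 fold change of its 24 nearest tested genes; red marks members called higher, blue lower, grey not called, and the dashed line equal values. ABCB8 and ABCF2 lie at neighbour medians of 0.81 and 0.76, and all others between -0.14 and 0.22.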

How the data were processed

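Per the submitters' processing notes, the tools were Trim Galore, HISAT2 and StringTie and the build was hg19, without versions. What the authors deposited is a linear signal for each gene, its StringTie abundance; whether this was FPKM or TPM is not stated. Once sorted, the 6 libraries lay within 0.243% of each other wherever they reached 1, so the table is quantile-normalized: it keeps ranks, not depth, and counting intervals cannot be given. Of 19785 rows 6 had missing values and were left out.

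Groups were taken from the sample titles. Values were transformed as log2(value + 1), and limma 3.58.1 in R 4.3.3 tested the 10741 genes whose mean reached 1 (trended variance prior, two-sided, with Benjamini-Hochberg adjustment across the 10741 genes). The log2(value + 1) scale understates changes of low genes. With 3 libraries against 3, the smallest two-sided exact permutation p is 0.1, and limma was therefore used for all tests. Chromosomes, gene order and overlaps came from GENCODE 29 on GRCh38, not the authors' build, and promoter sequences from RefSeq on GRCh38.p14. Tables were made with Python 3.11.15 and pandas 2.3.3.

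The members, the lists of related genes and the alternatives were chosen with earlier results of these data known. Values per library were given for each called member reported and for ABCB1, ABCC1, ABCG1, ABCG2, ABCA1 and ABCE1. Some members and related genes are counted in the totals but not reported here by name. The 4 promoters printed were picked after the values were seen. The alternatives were other pseudocounts, filters and variance priors, median centring, a block for replicate number, omission of 1 library at a time, and a window of 25 neighbours on each side.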

Additional observations from a re-analysis of the deposited data

How the results depend on the processing

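The calls of ABCB6, ABCB11, ABCC4, ABCF2 and MVP held under every alternative in which each gene was tested. Pseudocounts of 0.1 and 5 and median centring called the same 10 members as reported. With no filter 44 members were in the fit, 11 were called, ABCA1 and ABCA3 being gained and ABCE1 lost, and the median log2 fold change of the members was 0.000109. With a minimum mean of 5, 16 members were in the fit and 8 were called. Other variance priors lost ABCE1. With 1 library left out the fits called 3 to 4 members higher and 3 to 6 lower, and the median log2 fold change of the members lay between -0.13 and -0.030. Among genes that were not called, the log2 fold change changed sign for some of these fits: over the 6 fits it ran from -0.18 to 0.18 for ABCA7, from -0.12 to 0.26 for ABCD3, from -0.13 to 0.011 for ABCC1, from -0.10 to 0.054 for ABCC10 and from -0.035 to 0.14 for ABCF3. With 25 tested genes on each side the neighbour median of ABCB8 was 0.77.

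Libraries with the same replicate number did not deviate together (correlations of -0.065, -0.028 and 0 across genes), so the numbers are not read as pairs. With the replicate block 1607 genes were called higher and 1552 lower, 5 members higher and 5 lower, and the median of the members was -0.06; ABCC5 was gained (limma adjusted p = 0.0219).

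The limits are 3 libraries per group, 1 derivative line, an unknown depth and values that were quantile-normalized, so that members listed near 0 are not shown to be absent.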
